A study of Mus musculus with 96 samples.

Results

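The genes described here are those of cholesterol synthesis and transport in mouse liver. They were chosen by name: 29 genes were listed, and 27 of them had a probe set of their own on the array, out of 18193 genes measured in all. Acat2 and Soat2 were not analysed here. The measured genes fell into 3 roles. There were 17 enzymes of synthesis (6 from acetyl units to the isoprenoids, 11 from squalene to cholesterol), 3 regulators, and 7 genes of transport, esterification and lysosomal handling.

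Liver RNA came from CD-1 mice, an outbred stock, that received PB in the diet. The labels do not spell PB out; in work on the receptor CAR it commonly stands for phenobarbital, a drug that induces hepatic cytochrome P450 genes. There were 24 groups of 4 arrays: females and males, each without PB (dose 0) or with 0.15 or 1.5 or 15 or 75 or 150 mg/kg-day, each for 2 or 7 days. The labels give no genotype other than the stock and no age, and no allele or agent besides PB is named. Doses carry the unit of the design text; the titles of the samples write ppm after these numbers instead, and the data do not settle which holds. Nothing in the labels says that arrays of a group came from separate mice, so p-values measure only the spread between these samples. Values are log2 expression as deposited, so a difference of 1 is a 2-fold change.

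Cholesterol is made from acetyl units by a chain of enzymes in the cytosol and the endoplasmic reticulum. When sterols in the membrane are low, the transcription factor SREBP-2 (gene Srebf2) is carried by SCAP to the Golgi, cleaved and sent to the nucleus, where it turns on the genes of nearly the whole chain. INSIG proteins hold the SCAP complex back when sterols are plentiful, and Insig1 is itself a target of SREBP. The liver also takes cholesterol from high-density lipoprotein (HDL) through the receptor SR-BI (gene Scarb1), loads it onto apolipoprotein A-I through ABCA1, and releases it from lysosomes with the help of LIPA, NPC1 and NPC2.

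The sex and treatment labels were checked first. Xist had a median of 12.30 in the 48 female arrays, with a highest value of 12.50, and lay between 4.63 and 5.89 in the 48 male arrays. Cyp2b10, the standard target of CAR, lay between 6.41 and 9.31 in the 16 arrays at dose 0 and between 13.36 and 13.70 in the 16 at 150 mg/kg-day. In males on day 2, the array labelled replicate 1 at 15 mg/kg-day had a Cyp2b10 level of 13.66, against 10.26 to 11.78 in the other 15 arrays at that dose. The array labelled replicate 1 at 75 mg/kg-day had 10.98, against 12.98 to 13.50 in the other 15. Each of these arrays thus went against its dose label, and dose trends in males on day 2 are given with and without them. Hepatocyte markers all lay far above the arrays' lower quartile (3.91 to 4.09), with means over all arrays from 12.45 to 14.80.

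The promoters of the synthesis genes are shown because these genes deviated together between arrays, as described further on. RefSeq promoters (assembly GRCm38.p6) were found for 21 of the 27 genes. Those of Fdft1, Fdps, Npc1, Scarb1, Sqle and Stard4 were not matched. In the 250 bases before the annotated start, the letters CCAAT, searched on both strands and so also read as ATTGG, occurred in all 14 matched synthesis genes. Among all 27025 genes of the table, 37.5% held it, and among its 32851 promoters 33.8%. Counted by promoter, 14 of the 17 promoters of the synthesis genes held it, or 82.4%. Of the 7 other matched genes, 6 held it, Abca1 being the exception. CCAAT is the core bound by the factor NF-Y, a known partner of SREBP at sterol promoters. The letters TCACNCCAC, a form of the sterol regulatory element also searched on both strands, occurred in 1 of the 14 synthesis genes, Hmgcs1, against 1.22% of all genes. The match in Hmgcs1 does not overlap a CCAAT match. Such a match is a description of letters and not of a bound site, and a missing match says only that these letters are not in this window.

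Shown are 4 genes of the mevalonate and isoprenoid steps, 5′ to 3′ on the strand of the gene, with matches in capitals. Hmgcs1 makes HMG-CoA, Mvk phosphorylates mevalonate, Mvd makes isopentenyl diphosphate and Idi1 isomerises it. They lie at chr13:119690101-119690350 (Hmgcs1, plus strand), chr5:114444019-114444268 (Mvk, plus strand), chr8:122443423-122443672 (Mvd, minus strand) and chr13:8885356-8885605 (Idi1, plus strand), all in GRCm38.p6 and all immediately upstream of the annotated start. The Hmgcs1 window holds 3 copies of CCAAT beside TCACCCCAC, and the Mvk window holds 5 copies. The windows of Mvd and Idi1 hold 2 each. Pmvk, the fifth matched gene of these steps, has 2 promoters in the table, 1 with 1 copy and 1 with 0, and is not printed.
Hmgcs1: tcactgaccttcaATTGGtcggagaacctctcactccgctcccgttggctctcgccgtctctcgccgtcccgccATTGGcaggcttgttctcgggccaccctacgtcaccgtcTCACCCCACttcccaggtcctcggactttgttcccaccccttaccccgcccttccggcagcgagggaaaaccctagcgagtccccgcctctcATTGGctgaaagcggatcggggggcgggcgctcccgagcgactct
Mvk: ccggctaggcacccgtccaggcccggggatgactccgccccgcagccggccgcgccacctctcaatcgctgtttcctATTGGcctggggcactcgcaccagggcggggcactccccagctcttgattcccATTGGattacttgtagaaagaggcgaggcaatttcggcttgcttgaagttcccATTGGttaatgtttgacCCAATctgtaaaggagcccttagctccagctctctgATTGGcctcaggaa
Mvd: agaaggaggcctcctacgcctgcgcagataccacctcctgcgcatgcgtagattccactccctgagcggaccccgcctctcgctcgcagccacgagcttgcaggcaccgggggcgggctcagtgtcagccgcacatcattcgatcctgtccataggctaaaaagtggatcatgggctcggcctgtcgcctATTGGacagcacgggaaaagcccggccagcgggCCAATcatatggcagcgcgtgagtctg
Idi1: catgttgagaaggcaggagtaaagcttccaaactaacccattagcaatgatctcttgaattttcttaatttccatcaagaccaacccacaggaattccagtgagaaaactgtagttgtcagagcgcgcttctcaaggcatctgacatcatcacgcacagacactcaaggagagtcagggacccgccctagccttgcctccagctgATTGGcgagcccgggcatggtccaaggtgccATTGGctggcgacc

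Most synthesis enzymes varied more between arrays of the same group than the bulk of genes did. The standard deviation (SD) within groups had a median of 0.32 on the log2 scale over the 17 enzymes, against 0.15 over all genes and 0.14 over the 5526 genes with a mean of 8 or more. Of the 17, 14 lay above 0.26, the 90th percentile of all genes. Mvd had an SD of 0.55, or 1.47-fold, and Sqle (squalene epoxidase, the first oxygen-requiring step) 0.48. Lss, the cyclase that makes lanosterol, had 0.40 and Fdft1, squalene synthase, 0.39. The exceptions were Mvk with 0.25, Tm7sf2 (a sterol C14 reductase) with 0.17 and Ebp (the sterol isomerase) with 0.08. The 10 other measured members had a median of 0.17, and 1 of them, Insig1 with 0.27, lay above the 90th percentile.

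**Figure D1:**
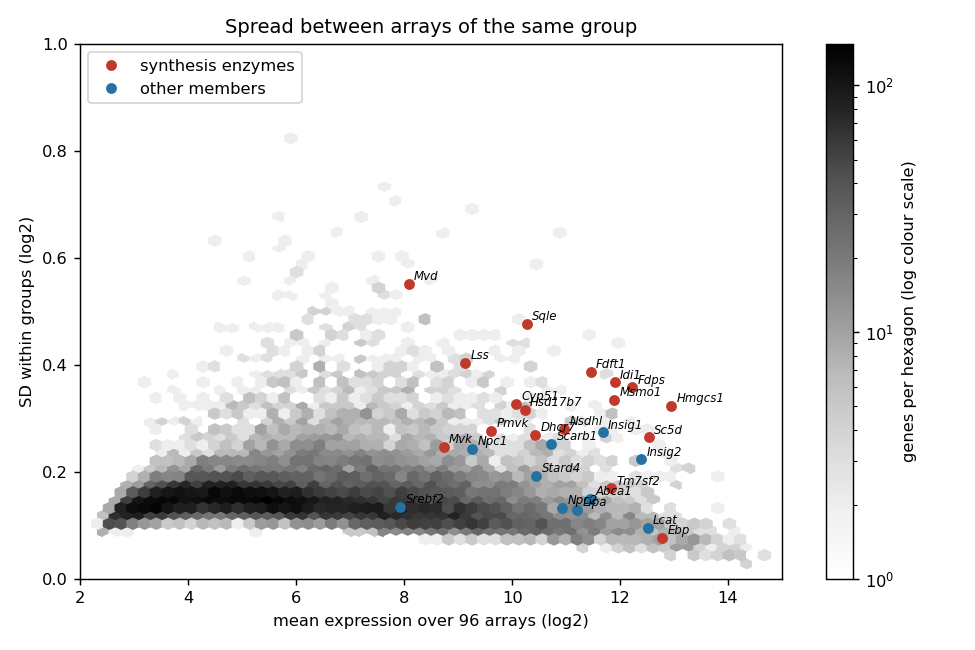
SD within groups (log2, vertical axis) against mean expression over 96 arrays (log2, horizontal axis) for all 18193 genes (shaded bins) and the members (points, coloured by synthesis enzyme or other member). The vertical axis ends at 1, above which 35 genes and no member lie, and most synthesis enzymes stand above the bulk of genes of like expression.

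These enzymes deviated together from array to array, in treated and untreated groups alike. Each enzyme was set against its own group mean in each array. In 58 of 96 arrays, nearly all enzymes lay on the same side: at least 15 of 17 were above their group means in 27 arrays, and at most 2 of 17 were above in 31. All 17 were above in 13 arrays and 0 of 17 in 11. Arrays at both ends were found in 21 of the 24 groups. Deviations cancel within a group by construction, so an array at one end makes an array at the other more likely. Over all 18193 genes, the share above the group mean ran from 40.1% to 60.1% across the arrays. Enzymes share their arrays, so these counts describe the arrays and do not replicate one another. In males on day 2 the deviations partly followed the replicate number, as given with the processing.

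Among the regulators, Insig1, which retains the SCAP complex in the endoplasmic reticulum, followed the enzymes. It lay above its group mean in 24 of the 27 arrays at the upper end and below in 27 of the 31 at the lower end. Stard4, a cytosolic sterol carrier, was above in 26 of 27 and below in 23 of 31. Srebf2 was above in 19 of 27 and below in 17 of 31. Scarb1 was above in 11 of 27 and below in 10 of 31. The largest deviation of the mean over the 17 enzymes was 0.64 above the group mean in replicate 4 of the female controls on day 7. The lowest was 0.55 below, in replicate 4 of the females at 1.5 mg/kg-day on day 2.

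**Figure D2:**
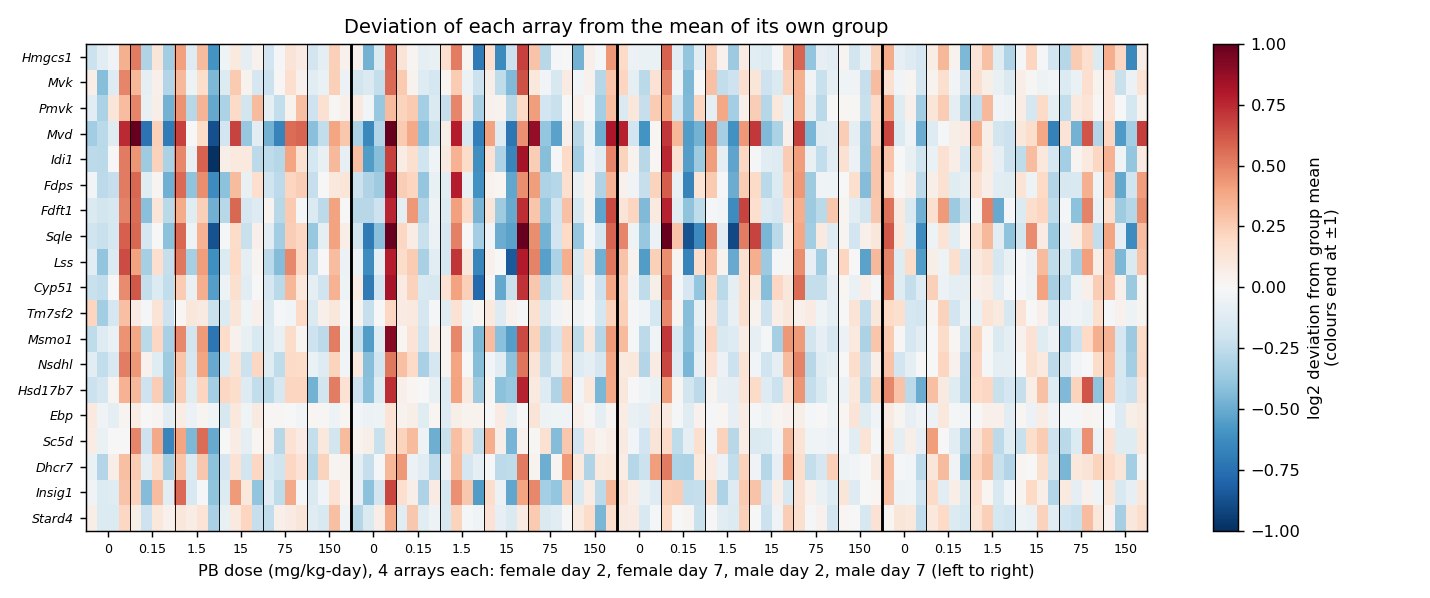
Deviation of each gene from its own group mean (log2, colour scale) for the 17 synthesis enzymes, Insig1 and Stard4 (rows) in 96 arrays (columns, ordered by group). Columns of 1 colour show arrays in which the genes deviated together, 27 toward high and 31 toward low.

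Each dose was compared with the controls of its sex and day by limma, in a single model over the 96 arrays, and a gene was called at a Benjamini-Hochberg adjusted p under 0.05 over all genes. At 150 mg/kg-day, 2 of 27 members (7.41%) were called in females on day 2, Scarb1 and Lcat, where 5.46% of all genes were called. Females on day 7 had 0 of 27, where 2.45% of all genes were called. Males had 2 of 27 on day 2, Scarb1 and Abca1 (4.9% of all genes), and 2 of 27 on day 7, Ebp and Scarb1 (3.04% of all genes). Every one of these calls was a fall. In the comparison averaged over both sexes and both days (16 arrays at 150 against 16 at 0), 5 of 27 members (18.5%) were called, all lower: Scarb1, Lcat, Ebp, Srebf2 and Abca1. That share was close to the 17.7% of all genes called in either direction, and above the 9.42% of all genes called lower.

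At the lower doses 0 of 27 members were called by limma in any of the 16 comparisons with dose 0, and the smallest adjusted p of a member was 0.095, at 75 mg/kg-day in females on day 7. At 75 mg/kg-day, 0.451% and 0.764% of all genes were called in females on days 2 and 7, and 0.44% and 0.247% in males. At 15 mg/kg-day these shares were 0.022% on either day in females, and 0.0385% and 0.011% in males. Without the pair of arrays that went against their labels, the shares in males on day 2 were 0.715% at 75 and 0.0275% at 15, with 0 of 27 members called at either dose. With all arrays, the shares at 1.5 and 0.15 mg/kg-day were 0%, except for 0.0055% at 0.15 mg/kg-day in males on day 7. The dose trend, a contrast linear in the rank of the 6 doses, called 2 of 27 members in females on day 2 (8.73% of all genes), 3 in females on day 7 (4.35%), 2 in males on day 2 (6.04%) and 2 in males on day 7 (4.46%). The difference in the response at 150 between the sexes gave 0 of 27 on day 2 (0.0055% of all genes) and 0 on day 7 (0.0879%), and that between the days 0 in females (0.874%) and 0 in males (0.132%).

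Against their spread, the response of the synthesis enzymes at 150 mg/kg-day was small. Of the 17 enzymes, 0 were called in females on day 2, 0 in females on day 7, 0 in males on day 2 and 1, Ebp, in males on day 7. The median change of the 17 was -0.01 (all genes -0.03) in females on day 2 and 0.19 (all genes -0.02) on day 7. In males it was -0.06 (all genes -0.02) on day 2 and -0.23 (all genes 0.00) on day 7. The median standard error (SE) of a change was 0.22 for the enzymes and 0.11 for all genes, so a change of a given size was harder to call for an enzyme than for most genes.

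In the averaged comparison, 1 of 17 enzymes (5.88%) was called, Ebp, against 17.7% of all genes. The median over the 17 was 0.00, against -0.01 for all genes. Sqle had a change of 0.33 (95% interval 0.01 to 0.66, adjusted p = 0.165 in limma). Tm7sf2 had 0.16 (0.04 to 0.28, adjusted p = 0.0506). Idi1 had -0.20 (-0.45 to 0.06, adjusted p = 0.319). Over all 17 enzymes the interval limits ran from -0.45 (Idi1) to 0.66 (Sqle). An average change beyond these limits lay outside the interval of every enzyme. Within them, what was excluded differed by enzyme, and narrower intervals such as that of Tm7sf2 left out smaller changes.

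**Figure D3:**
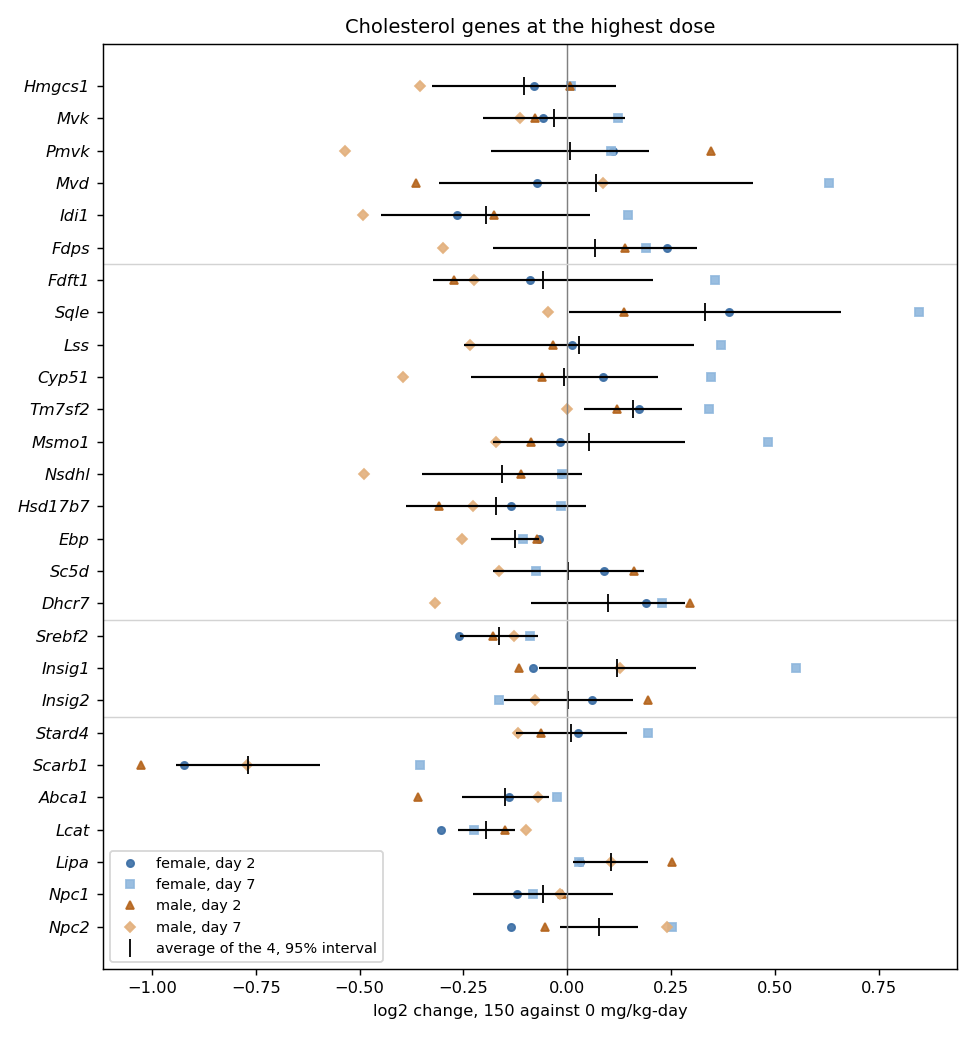
Log2 change at 150 against 0 mg/kg-day (horizontal axis) for the 27 members (vertical axis, ordered by role) in each sex on each day (points). Black marks give the average of the 4 comparisons with its 95% interval, and calls are not marked. Scarb1 lies left of 0 in all 4 comparisons, while the intervals of the synthesis enzymes are mostly wide and mostly span 0.

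Ebp was the single synthesis enzyme called at 150 mg/kg-day. In males on day 7 its values were 12.87, 12.81, 12.70 and 12.75 at dose 0 and 12.51, 12.40, 12.58 and 12.62 at 150. Every treated array lay below every control. The change was -0.25 (SE 0.06, n = 4 and 4, adjusted p = 0.00321 in limma), or 1.19-fold lower. Without replicate 2 at 150 it was -0.21 with an adjusted p of 0.0528. Averaged over sexes and days the change was -0.13 (95% interval -0.18 to -0.07, adjusted p = 0.000676 in limma). Ebp was the enzyme with the smallest spread within groups.

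One control array of females on day 7 set the size of several differences. Sqle at dose 0 was 9.55, 9.03, 9.32 and 11.05, and at 150 it was 10.20, 10.56, 10.40 and 11.16. Replicate 4 of the controls lay above 3 of the 4 treated arrays, while the other 3 controls lay below all of them. Insig1 at dose 0 was 11.10, 10.77, 10.99 and 11.85, and at 150 it was 11.58, 11.80, 11.47 and 12.06, with the same control array above 3 of the 4 treated ones. With all arrays, the change of Sqle was 0.85 (adjusted p = 0.185 in limma) and that of Insig1 0.55 (adjusted p = 0.114). Without that control array, Sqle had 1.28 (SE 0.33, adjusted p = 0.0183) and Insig1 0.78 (SE 0.19, adjusted p = 0.0147), and both were called. The number of enzymes with a change above 0 went from 13 to 15 of 17 and the median from 0.19 to 0.37, with 1 of 17 called where 2.05% of all genes were. This array was left out after its values were seen. Its mean over the 17 enzymes was 11.25, within the range of arrays in the other control groups (10.66 to 11.49). The other 3 controls had 10.23 to 10.54, below that range, though arrays at other doses went as low (down to 10.18). The calls without replicate 4 thus rest on 3 low controls. Without replicate 4, limma also called Insig1 between the days at dose 0 in females, and 5 members between the control sexes on day 7. With all arrays, 0.0165% and 6.71% of all genes were called in these comparisons. The shares without replicate 4 are not given, so these calls are not read as a result about the members.

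**Figure D4:**
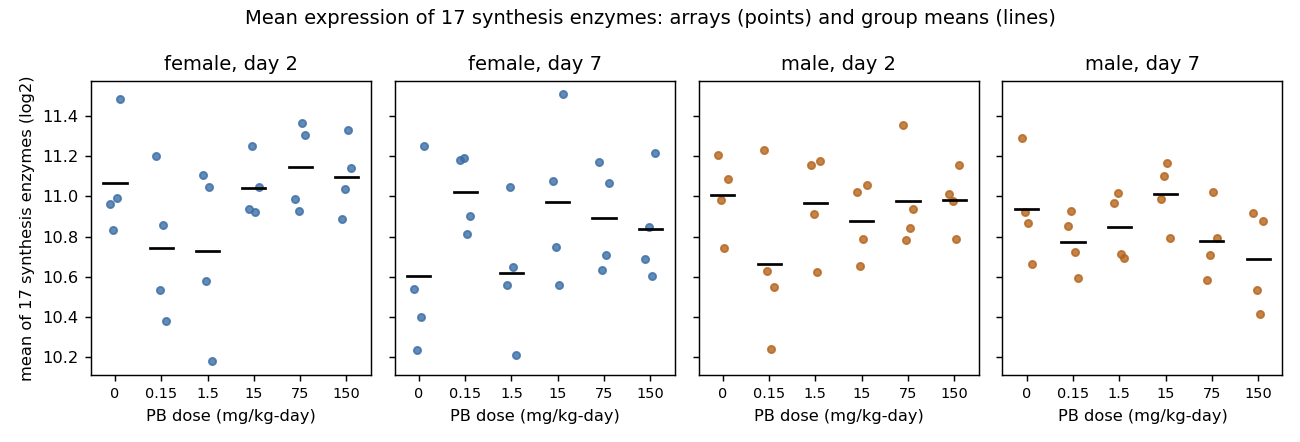
Mean expression of the 17 synthesis enzymes (log2, vertical axis) by PB dose (mg/kg-day, horizontal axis, doses evenly spaced) in each sex and day, with a point for each array and a line for each group mean. Arrays of a group lie far apart, and the female controls on day 7 include 1 array at 11.25 with the other 3 between 10.23 and 10.54.

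Scarb1, the HDL receptor, was the member with the largest change. Under dose 0, females on day 2 had 11.03, 11.27, 11.17 and 10.79, and under 150 mg/kg-day 10.04, 10.10, 9.94 and 10.49. Males on day 2 had 10.89, 10.99, 11.19 and 10.81 at dose 0 and 10.09, 9.51, 10.01 and 10.19 at 150. In both sexes every treated array on day 2 was below every control. The change was -0.92 in females (SE 0.18, adjusted p = 0.000108 in limma), 1.90-fold lower, and -1.03 in males (SE 0.18, adjusted p = 2.56e-05), 2.04-fold lower.

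On day 7, males had Scarb1 levels of 10.92, 10.71, 10.69 and 11.03 at dose 0 and 9.50, 10.32, 10.27 and 10.16 at 150. The groups did not overlap, and the change was -0.77 (SE 0.18, adjusted p = 0.00318 in limma), 1.71-fold lower. Without replicate 1 at 150, the lowest array, it was -0.58 with an adjusted p of 0.0794. Females on day 7 had 11.35, 10.83, 10.97 and 10.99 at dose 0 and 10.58, 10.68, 10.87 and 10.59 at 150. These groups overlapped by 1 array on each side, and the change was -0.36 (95% interval -0.70 to -0.01, adjusted p = 0.351), which was not called. Averaged over sexes and days the change was -0.77 (95% interval -0.94 to -0.59, adjusted p = 5.87e-11).

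Scarb1 had a falling dose trend in females on day 2 and in males on both days. The trend, given as the fitted change from lowest to highest dose, was -0.94 in females on day 2 (adjusted p = 1.74e-06 in limma), -0.83 in males on day 2 (adjusted p = 3.45e-05, and -0.83 with 6.31e-05 without the pair of arrays that went against their dose labels) and -0.73 in males on day 7 (adjusted p = 0.000497). On day 7 in females it was -0.42 (adjusted p = 0.0888). The group means of females on day 2 were 11.06, 11.22, 11.16, 10.91, 10.65 and 10.14 in order of dose, so the means at 0.15 and 1.5 lay above that of the controls. At 75 mg/kg-day the change from dose 0 lay between -0.45 and -0.37 in the 4 combinations of sex and day, and none passed the threshold (adjusted p from 0.241 to 0.432). Without the pair of arrays that went against their labels, the change in males on day 2 was -0.39 at 75 (SE 0.19, n = 3 and 4, adjusted p = 0.46 in limma). At 15 mg/kg-day it was about as large there, -0.40 (SE 0.19, n = 3 and 4, adjusted p = 0.839). The other probe sets of Scarb1 moved alike. Their changes at 150 were -0.82 and -0.78 in females on day 2, -0.92 and -0.80 in males on day 2, and -0.71 and -0.74 in males on day 7. Those of females on day 7 were -0.20 and -0.27.

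**Figure D5:**
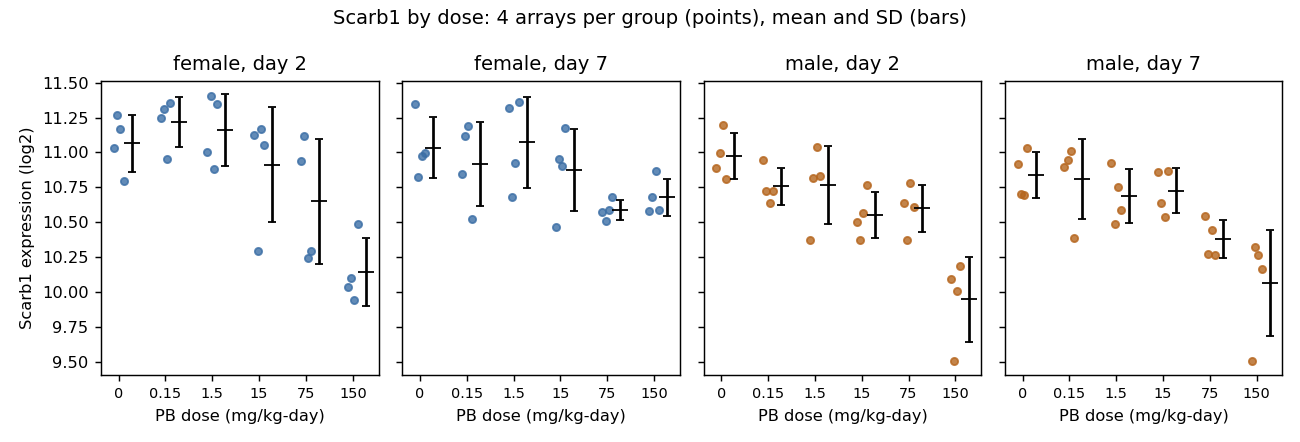
Scarb1 expression (log2, vertical axis) by PB dose (mg/kg-day, horizontal axis, doses evenly spaced) in each sex and day, with a point for each array and a line for each group mean. At 150 the arrays lie between 9.50 and 10.49 in males and in females on day 2, below all controls of the same sex and day, and between 10.58 and 10.87 in females on day 7.

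Whether the fall of Scarb1 differed between the sexes or days was tested by itself. Males minus females, the difference in response was -0.10 on day 2 (95% interval -0.60 to 0.39, adjusted p = 1 in limma) and -0.42 on day 7 (-0.91 to 0.08, adjusted p = 0.997). Day 7 minus day 2, it was 0.57 in females (0.07 to 1.06, adjusted p = 0.504) and 0.25 in males (-0.24 to 0.75, adjusted p = 0.821). None passed the threshold, and the intervals leave room for differences as large as the fall in some groups.

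Lcat, the plasma enzyme that esterifies cholesterol on HDL, also fell. In females on day 2 its values were 12.70, 12.64, 12.62 and 12.61 at dose 0 and 12.20, 12.07, 12.58 and 12.50 at 150. The groups did not overlap, and the change was -0.30 (SE 0.07, adjusted p = 0.00183 in limma), 1.23-fold lower. Without replicate 2 at 150 it was -0.22 with an adjusted p of 0.0783. The dose trend there was -0.37 (adjusted p = 1.99e-06). The changes at 150 in the other groups were -0.22 in females on day 7 (adjusted p = 0.065), -0.15 in males on day 2 (adjusted p = 0.252) and -0.10 in males on day 7 (adjusted p = 0.546). Averaged over sexes and days it was -0.19 (95% interval -0.26 to -0.13, adjusted p = 1.08e-05).

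Abca1, the exporter that loads cholesterol onto apolipoprotein A-I, was called lower in males on day 2. Its values were 11.85, 11.87, 11.61 and 11.63 at dose 0 and 11.45, 11.32, 11.46 and 11.31 at 150, without overlap. The change was -0.36 (SE 0.11, adjusted p = 0.0288 in limma), 1.28-fold lower. The call rested on single arrays: it was lost without replicate 1 (-0.32, adjusted p = 0.119) or 2 (-0.32, adjusted p = 0.101) of the controls and without replicate 2 (-0.34, adjusted p = 0.0932) or 4 (-0.33, adjusted p = 0.086) at 150. It was also lost with the mean of the 3 Abca1 probe sets (-0.16, adjusted p = 0.607) and after quantile normalization (-0.32, adjusted p = 0.0607). The other 2 probe sets were dimmer, with means of 5.97 and 4.66 against 11.44, and had changes of -0.08 and -0.04. The averaged change was -0.15 (adjusted p = 0.0382), and leaving out any of 15 of the 32 arrays raised its adjusted p above the threshold, to at most 0.0691. That call was also lost with the mean of the probe sets (-0.11, adjusted p = 0.236), after median centring (0.0745) and after quantile normalization (0.0553).

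Srebf2, the gene of SREBP-2, was called lower in the averaged comparison, by -0.16 (95% interval -0.26 to -0.07, adjusted p = 0.00853 in limma). Its largest change was in females on day 2, with 8.15, 8.17, 8.0 and 8.09 at dose 0 and 7.92, 7.64, 7.95 and 7.85 at 150. Those groups did not overlap, but the change of -0.26 had an adjusted p of 0.1 and was not called. The other probe set of Srebf2, with a mean of 7.44 against 7.93, had its smallest change there, -0.07. It had -0.15 in females on day 7, -0.18 and -0.22 in males on days 2 and 7, and -0.16 averaged. Insig2, the second INSIG gene, had an averaged change of 0.00 (95% interval -0.15 to 0.16) and Insig1 0.12 (-0.07 to 0.31). Stard4 had 0.01 (-0.12 to 0.14).

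The lysosomal genes had small changes. Lipa, the acid lipase that frees cholesterol from its esters, had an averaged change of 0.10 (adjusted p = 0.108 in limma). Npc1 and Npc2, which pass cholesterol out of the lysosome, had -0.06 (adjusted p = 0.712) and 0.08 (adjusted p = 0.296). Npc2 rose with dose in females on day 7, with a trend of 0.28 (adjusted p = 0.0236), a call lost without replicate 2 of the controls (adjusted p = 0.0648), replicate 3 at 75 (0.0863) or replicate 2 at 150 (0.0889), and with the mean of its probe sets (0.17, adjusted p = 0.14). There its values were 10.93, 10.84, 10.92 and 10.92 at dose 0 and 11.07, 11.29, 11.16 and 11.09 at 150, without overlap. Of 15 macrophage markers, 1 was called in that trend, Lyz2, where 4.35% of all genes were called. All 15 had a trend above 0 in those females, with a median of 0.40, but the markers share their arrays. The summed level of the 15 markers ran from 13.56 to 13.80 at dose 0, 13.55 to 14.57 at 0.15, 13.58 to 14.12 at 1.5, 13.49 to 14.45 at 15, 13.92 to 15.29 at 75 and 13.77 to 14.30 at 150. The highest of these sums was at 75, and the range at 150 overlapped that at dose 0. The Npc2 trend also leaned on the dose of 75, as it fell to 0.22 without replicate 3 there. None of the markers lay below the arrays' lower quartile on average, and their part in the result was not tested. In liver tissue, more cells of a type and more RNA per cell cannot be told apart.

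Lipa rose with dose in males on day 2, with a trend of 0.24 (adjusted p = 0.049 in limma). At dose 0 it had 11.02, 11.14, 11.24 and 11.01, and at 150 11.37, 11.22, 11.41 and 11.41, with the lowest treated array inside the control range. Without the pair of arrays that went against their dose labels the trend was 0.22 (adjusted p = 0.0667), and leaving out any of 16 of the 24 arrays ended the call (adjusted p up to 0.127). With the mean of its 3 probe sets the trend was 0.21 (adjusted p = 0.568). Of 15 macrophage markers, 3 had a trend above 0 in these males, with a median of -0.08, and their part in the result was not tested.

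Other members with a dose trend were synthesis enzymes. Tm7sf2 rose in females on day 7 by 0.32 (adjusted p = 0.0458 in limma), from 11.80, 11.54, 11.77 and 11.99 at dose 0 to 12.07, 12.12, 11.94 and 12.34 at 150. One control exceeded the lowest treated array, and leaving out any of 14 of the 24 arrays ended the call (adjusted p up to 0.179). Ebp fell by 0.16 in the same females (adjusted p = 0.0412), a call that ended without any of 11 arrays (adjusted p up to 0.161) and after median centring (-0.14, adjusted p = 0.125). In males on day 7 Ebp fell by 0.21 (adjusted p = 0.00261), a call kept without any single array. In the females of day 2, 16 of 17 enzymes had a trend above 0 with a median of 0.22, against -0.02 for all genes, yet 0 were called. Sqle had 0.67 there (adjusted p = 0.135) and Fdps, farnesyl diphosphate synthase, 0.51 (adjusted p = 0.129). The enzymes deviate together, so this count is not 17 separate observations. Their mean in these females was 11.07 at dose 0, then 10.74, 10.73, 11.04, 11.15 and 11.10 in order of dose. It was thus lowest at 0.15 and 1.5 mg/kg-day, and at 150 it was near the controls.

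Between the sexes at dose 0 on day 2, limma called 0 of 27 members and 2.06% of all genes, and it called Lcat when dim genes were left out or with a trended robust prior. On day 7, 2 of 27 were called against 6.71%. Pmvk, phosphomevalonate kinase, was 9.26, 9.14, 8.79 and 9.49 in females and 10.25, 9.71, 9.88 and 9.48 in males, with 1 female array within the male range. The difference, males minus females, was 0.66 (SE 0.19, adjusted p = 0.0207), and it was not called without replicate 3 of the females (0.53, adjusted p = 0.131) or replicate 1 of the males (0.52, adjusted p = 0.129).

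Lcat was lower in control males on day 7, with 12.43, 12.34, 12.40 and 12.49 against 12.69, 12.75, 12.75 and 12.73 in females. The groups did not overlap, and the difference was -0.32 (SE 0.07, adjusted p = 0.00134 in limma). Averaged over days, 4 of 27 members were called (10.2% of all genes). Lcat was lower in males by -0.27 (adjusted p = 2.82e-05), Npc1 by -0.38 (adjusted p = 0.0248) and Npc2 by -0.20 (adjusted p = 0.0372), while Abca1 was higher by 0.24 (adjusted p = 0.023).

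Of these averaged differences between the sexes, that of Lcat was called whichever array was left out. Npc1 was 9.24, 9.36, 9.10 and 9.14 in females on day 2 and 8.52, 9.14, 8.91 and 9.05 in males, with overlap. On day 7 it was 9.78, 9.64, 9.93 and 9.56 in females and 9.33, 9.23, 9.30 and 9.19 in males, without overlap. Its call ended without replicate 1 of the males on day 2 (adjusted p = 0.0928 in limma), replicate 3 of the females on day 7 (0.0656) or replicate 2 of the females on day 2 (0.0522). The call of Abca1 ended without any of 4 arrays (adjusted p up to 0.0591) and that of Npc2 without any of 11 of the 16 (adjusted p up to 0.0918). Abca1 was also not called with the mean of its probe sets (0.17, adjusted p = 0.226), nor Npc2 after quantile normalization (adjusted p = 0.0672). Between the days at dose 0, 0 of 27 members were called in females (0.0165% of all genes) and 0 in males (0%).

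The rest of the cholesterol pathway was followed in 32 measured genes outside the members, of 40 listed. At 150 mg/kg-day, 4 of 32 (12.5%) were called in females on day 2, where 5.46% of all genes were, and 1 (3.12%) in females on day 7, against 2.45%. In males it was 2 (6.25%) on day 2, against 4.9%, and 0 on day 7, against 3.04%. Outside the females of day 2 these shares were near the background or below it. In females on day 2, Mbtps2 (the site-2 protease that cleaves SREBP) rose by 0.28 (adjusted p = 0.0367 in limma) and Rnf139, a ubiquitin ligase of the endoplasmic reticulum, by 0.23 (adjusted p = 0.0153). There Mylip, the ligase that degrades lipoprotein receptors, fell by 0.48 (adjusted p = 0.0307) and Stard5, a sterol carrier, by 0.38 (adjusted p = 0.0333). Apoa1, the main protein of HDL, fell in females on day 7 by 0.15 (adjusted p = 0.0429).

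In males on day 2, Mylip fell by 0.52 (adjusted p = 0.0182 in limma) and Abcg5, which with Abcg8 secretes sterols into bile, by 0.71 (adjusted p = 0.00554). In the averaged comparison, 3 of 32 rose and 8 fell, or 34.4% called against 17.7% of all genes. Nceh1, a cholesteryl ester hydrolase, rose by 0.49 (adjusted p = 0.0303), beside Mbtps2 and Rnf139. Lrp1, an endocytic receptor for lipoprotein remnants, fell by 0.39 (adjusted p = 2.24e-05), Abcg5 by 0.35 (adjusted p = 0.00164), Abcg8 by 0.34 (adjusted p = 0.000364) and Scap, the SREBP escort, by 0.19 (adjusted p = 0.00198). Mylip, Stard3, Stard5 and Apoa1 were the other 4 that fell, with changes from -0.34 to -0.07. Between the sexes at dose 0, the difference in these genes was largest for Cyp7a1, the rate-limiting enzyme of bile acid synthesis, at -2.54 averaged over days (males minus females, adjusted p = 5.27e-11), and Cyp7b1, of the alternative bile acid route, was higher in males by 1.44 (adjusted p = 7.28e-08).

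Markers of liver cell types moved in the same comparisons as Scarb1, Lcat and Abca1. Sinusoidal endothelial cells also express Scarb1. At 150 mg/kg-day, 5.46% of all genes were called in females and 4.9% in males on day 2, and 2.45% and 3.04% on day 7. Of 10 endothelial markers, 2 fell in females on day 2 (Stab2 and Clec4g), 2 in males on day 2 (Clec4g and Tek), 1 in males on day 7 (Stab2) and 0 in females on day 7. Their summed level on day 2 ran from 12.56 to 12.88 at dose 0 and from 12.39 to 12.73 at 150 in females, and from 12.57 to 12.70 against 12.31 to 12.43 in males. On day 7 it ran from 12.69 to 12.96 against 12.60 to 12.88 in females and from 12.50 to 12.69 against 12.39 to 12.69 in males. None of the markers of this list lay below the arrays' lower quartile on average.

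Of 10 hepatocyte markers, 2 fell on day 2 in either sex (Apoh and F2), 1 fell in females on day 7 (Apoa1) and 0 were called in males on day 7. Their summed level on day 2 ran from 17.55 to 17.60 at dose 0 against 17.49 to 17.54 at 150 in females and from 17.56 to 17.57 against 17.50 to 17.54 in males. On day 7 it ran from 17.55 to 17.58 against 17.50 to 17.52 in females and from 17.53 to 17.57 against 17.47 to 17.52 in males. In all 4 comparisons the treated arrays lay below the controls without overlap, by small amounts. None of these markers lay below the arrays' lower quartile on average.

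Other marker lists also had summed levels without overlap between 150 and dose 0. In males on day 7, where Scarb1 and Ebp were called, the 15 macrophage markers ran from 12.93 to 13.61 at dose 0 and from 13.75 to 14.41 at 150, with 3 called higher (Cd5l, Adgre1 and Mpeg1). The 9 lymphocyte markers there ran from 8.80 to 8.96 and from 9.15 to 9.64, with 1 called higher (Ptprc). Of 10 stellate markers 3 fell there (Lrat, Reln and Dcn), though the sums overlapped. In females on day 2, where Scarb1 and Lcat were called, the 7 neutrophil markers ran from 8.64 to 9.93 at dose 0 and from 9.95 to 11.09 at 150, with S100a8 called higher. The 4 markers of the pancreas, a neighbouring tissue, ran from 11.67 to 12.06 and from 11.09 to 11.19, with Cela1 called lower, and the 10 stellate markers from 13.04 to 13.14 and from 12.84 to 13.01, with 0 called. In females on day 7, the lymphocyte, pancreas and stellate sums did not overlap either, higher for the first and lower for the others. The part of these cell types in the results was not tested.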

How the data were processed

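Liver RNA of CD-1 mice was hybridised to 96 expression arrays, 1 per sample. The authors' deposited values are read as log2 from their range, and array medians were nearly equal, between 5.35 and 5.44; neither the labels nor the file state how arrays were scaled. Arrays give no counts, and their number limits the precision. Probe sets were named by the platform's annotation: of 45101, 64 controls were left out, 34945 had 1 gene symbol, 932 had several and 9160 had none, and only the first kind was used. Each gene was given by its probe set with the highest mean, which left 18193 genes.

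A mean per group was fitted over all 96 arrays with limma 3.58.1 (R 4.3.3, and version 1.17.8 of data.table), with 72 residual and 4.39 prior degrees of freedom. Contrasts were tested two-sided with Benjamini-Hochberg adjustment over all genes at 0.05. The dose trend is linear in dose rank. The scripts were tested on simulated data. Figures were drawn with matplotlib 3.10.9.

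Values in every sample are given for members called at 150 mg/kg-day, and for further members with a called trend or a called difference between control sexes. Sqle and Insig1 were shown after their values were seen. Other pathway genes are named where called at 150; Cyp7a1 and Cyp7b1 were chosen after their values were seen. The members and all gene lists were chosen with earlier results of these data known. Correlations of same-numbered samples ran from -0.16 to 0.14 over 16 pairs, and no block was used in the main fit. The synthesis enzymes did partly follow replicate number in males on day 2. There their mean deviation was positive at every dose in replicate 1 (0.03 to 0.57). It was negative at every dose in replicate 2 (-0.23 to -0.004) and in replicate 3 (-0.42 to -0.09), and mixed in replicate 4. In the other combinations of sex and day, each replicate number had both signs. Alternatives were other normalizations, probe set rules, variance settings, array weights, fewer arrays, a replicate block and each array left out. Leaving out the pair of male arrays that go against their dose labels was chosen after seeing the data.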

Additional observations from a re-analysis of the deposited data

Results flagged for a closer look

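Among 56 groups of 4 arrays (7 members, at dose 0 and 150 mg/kg-day), 3 held an array far from the other 3, and chance gives about 1 in 20 such groups. Sqle in replicate 4 of the female controls on day 2 was 11.11, against 10.29 to 10.34 in the other 3. Ebp in replicate 4 of the female controls on day 7 was 12.94, against 12.75 to 12.78. Ebp in replicate 3 of the females at 150 mg/kg-day on day 2 was 12.73, against 12.79 to 12.80.

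For 4 synthesis enzymes, every treated array lay on one side of its control mean in one group and on the opposite side in another. All 27 members were looked at, between groups that shared a sex or a day. How often this occurs among all genes was not counted. The enzymes deviate together between arrays, so these are not 4 separate observations. Pmvk changed by 0.35 at 150 mg/kg-day in males on day 2 and by -0.54 in males on day 7, and the test of the difference itself, -0.88 (SE 0.27), gave an adjusted p of 0.183 in limma. Dhcr7, the last reductase of one branch of the pathway, had 0.30 and -0.32 in these groups (difference adjusted p = 0.434), and Sc5d, the sterol desaturase, 0.16 and -0.16 (adjusted p = 0.767). The other probe sets of Sc5d had -0.03 and 0.21 in males on day 2. They had 0.26 and 0.14 in males on day 7, where the probe set used fell. Cyp51, the lanosterol demethylase, had 0.35 in females and -0.40 in males on day 7 (adjusted p = 0.997). None of the 4 differences passed the threshold.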

How the results depend on the processing

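Of 30 results on single genes, other settings gave 269 values: 244 kept their direction and side of the threshold, 23 kept the direction but passed it no longer, 2 came to pass it, and 0 reversed. Leaving out single arrays gave 536 values, of which 448 kept both, 86 lost the threshold and 2 gained it. Scarb1 was called under every setting in females and males on day 2, and failed in males on day 7 with only the 8 arrays compared (adjusted p = 0.0831 in limma) or without replicate 1 at 150.

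Counts of called members at 150 mg/kg-day moved as follows. Here and in the paragraphs that follow, the share of all genes called under the same setting is not given. The moves are therefore not set against the background and are not read as results about the members. With only the 8 arrays compared, they were 1 in females on day 2, 1 in males on day 2 and 0 in males on day 7. In females on day 7, array weights gave 3, leaving out dim genes 1 and quantile normalization 1, against 0. In males on day 2, the mean of all probe sets gave 1 and the 48 arrays of the same sex 1, against 2. The trend of females on day 7 had 1 call with 48 arrays, against 3. That of males on day 2 had 1, against 2, after median centring, with mean probe sets, with 48 arrays or without the pair that goes against its labels. Between the control sexes on day 2, leaving out dim genes gave 1 and the trended robust prior 1, against 0, and on day 7 array weights gave 4, against 2.

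With the replicate number as a block, the calls between the control sexes were 1 on day 7, against 2, and 2 averaged over days, against 4. The calls that ended were Pmvk on day 7 (adjusted p = 0.13 in limma) and, averaged over days, Npc1 (0.118) and Npc2 (0.164). Other counts stayed within 1.5 times. Correlations of same-numbered arrays ran from -0.16 to 0.14 over 16 pairs, 2 of them over 0.1.

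Leaving out single arrays, the calls at 150 ran from 1 to 2 in females on day 2, 0 to 2 in females on day 7, 1 to 2 in males on day 2 and 1 to 2 in males on day 7, and the averaged count from 4 to 7. Trends ran from 0 to 3 in females on day 7, 1 to 3 in males on day 2 and 2 to 4 in males on day 7. Lower doses gave 0 to 1 in females on day 7 and 0 to 1 in males on day 2. The control sexes gave 0 to 1 on day 2, 1 to 5 on day 7 and 1 to 4 averaged, and the control days in females 0 to 1. The cause of these moves was not tested.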
